A study of Homo sapiens with 42 samples.

Results

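The genes described here are 73 human olfactory receptor genes that had sequencing reads in an experiment with antisense oligonucleotides in HEK293T cells. They were chosen as protein-coding genes with a symbol of the form OR, number, letters, number, and with at least 30 estimated reads summed over the 6 libraries of that experiment, 3 with an oligonucleotide against POLR3G and 3 with a scrambled one. The gene table held 367 protein-coding olfactory receptor genes, so that 19.9% of them were members and 294 fell below the threshold. Because reads in the ASO libraries chose the members, their values in that experiment are given as a description, with no test.

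The study sequenced poly(A) RNA from 42 libraries in 14 groups of 3, all made in cell lines. HEK293T, a line from human embryonic kidney that carries viral transforming genes, received for 48 h the POLR3G ASO or the scrambled ASO at 200 nM, POLR3G siRNA or control siRNA at 200 nM, one of the POLR3GL siRNAs siE4, siE6 and siE8 or control siRNA at 25 nM, or plasmids for MAF1 or eGFP. THP-1, a human monocytic leukaemia line, received ML-60218 at 25 µM for 4 h with CHX at 10 µg/ml for 4.5 h, ML-60218 alone, CHX alone, or DMSO. POLR3G and POLR3GL are alternative subunits of RNA polymerase III, MAF1 represses that polymerase, ML-60218 inhibits it, and CHX is named in the series as an inhibitor of protein synthesis. An ASO is a short DNA-like strand that pairs with its target RNA, and an siRNA is a short duplex that guides cleavage of its target. The labels name no separate cultures, so the 3 libraries of a group may be technical repeats and p-values measure only the spread between them.

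Olfactory receptors are G-protein-coupled receptors of the nasal sensory neurons and form the largest gene family in the human genome. Each mature neuron is known to transcribe 1 allele of 1 receptor gene, while the remaining genes of the family lie silent in heterochromatin. The receptors signal through the G protein GNAL, the adenylyl cyclase ADCY3 and a cyclic-nucleotide-gated channel, and the factors LHX2, LDB1 and EBF act at their enhancers. Most members have a single coding exon, lie in clusters and have close paralogs and pseudogenes. In kidney-derived and monocytic lines the family is ordinarily close to silent, although a few receptors, such as OR51E2 in prostate and OR1D2 in sperm, are known outside the nose.

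Libraries held 32705684 to 52568088 estimated reads. POLR3G averaged 7.45 ± 1.68 CPM (reads scaled to library size with TMM factors) in POLR3G ASO libraries and 21.7 ± 3.42 CPM in scrambled ASO libraries (SD, n = 3 each). With POLR3G siRNA it averaged 13.9 ± 2.34 CPM, against 33.2 ± 5.91 CPM with control siRNA at 200 nM. POLR3GL lay at 2.61 to 3.36 CPM on average with siE4, siE6 and siE8, against 33.8 CPM with control siRNA at 25 nM, and MAF1 averaged 2876 CPM with its plasmid, against 38.7 CPM with eGFP. The 10 THP-1 markers summed to 33.1 to 34.7 CPM in POLR3G ASO libraries and 6.79 to 8.01 CPM in scrambled ASO libraries, against 5334 to 8164 CPM in THP-1 libraries. TYROBP and PTPRC, 2 of these 10 markers, had 0 reads in the 6 ASO libraries. The part of the THP-1 markers in the results below was not tested. Mitochondrial transcripts averaged 65640 CPM in POLR3G ASO libraries and 88930 CPM in scrambled ASO libraries.

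The members were higher with the POLR3G ASO than in any other group of the series. Their summed level was 483, 503 and 520 CPM in the 3 POLR3G ASO libraries, against 171, 176 and 180 CPM in the 3 scrambled ASO libraries. The groups did not overlap, and the means, 502 ± 18.5 and 176 ± 4.47 CPM (SD, n = 3 each), gave a ratio of 2.86 ± 0.128. In the other 12 groups the mean sum lay between 52.9 CPM with siE8 and 105 CPM with ML-60218 and CHX, so that the POLR3G ASO group stood at 4.77 times the highest of them. The scrambled ASO group itself stood at 1.67 times the highest of them and at 2.05 times the control siRNA used at the same 200 nM. Each POLR3G ASO library had a read in all 73 members, scrambled ASO libraries in 68 to 71, and the other libraries in 59 to 67. These counts follow in part from the choice of members by their reads in the ASO libraries. ASO and siRNA libraries belong to separate experiments, so the oligonucleotide type and the experiment cannot be told apart. In these bulk libraries a change in the share of cells that hold a transcript and a change in its amount per cell cannot be told apart either.

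**Figure D1:**
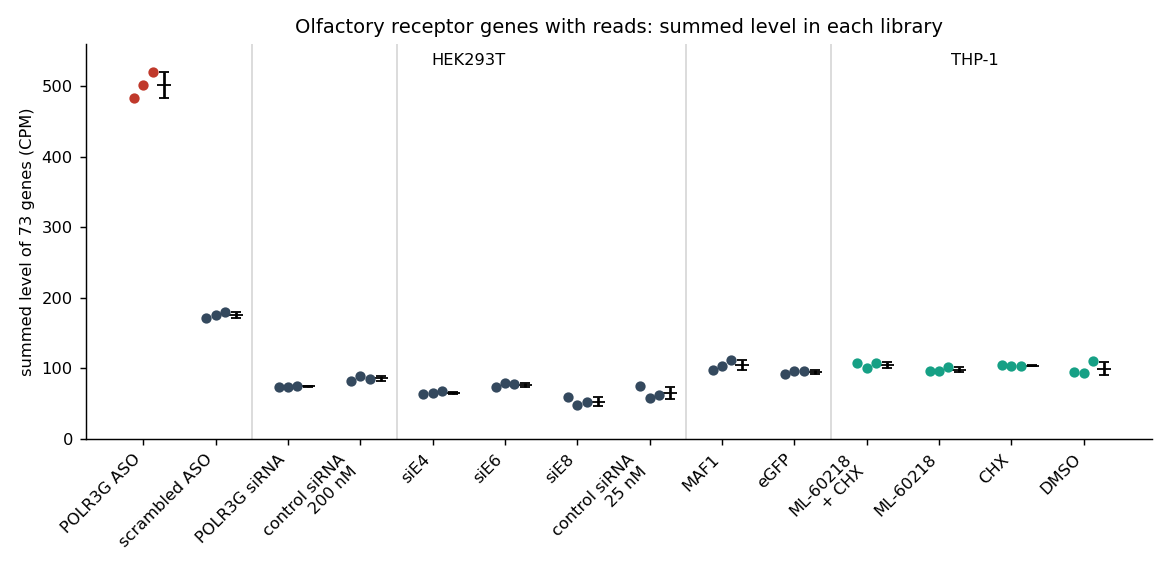
Summed level of the 73 olfactory receptor genes (CPM, linear axis from 0) in each of the 42 libraries, by group, with the POLR3G ASO in red, the other HEK293T groups in dark blue and THP-1 groups in green; the black marks are the mean and SD of 3 libraries. The 3 POLR3G ASO libraries sit between 483 and 520 CPM, the scrambled ASO libraries between 171 and 180 CPM, and no mean of the other groups passes 105 CPM.

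Of the 73 members, 71 had a higher mean level with the POLR3G ASO and 2 a lower one, and 51 exceeded the scrambled ASO mean more than 2-fold. The median log2 ratio was 1.35, with quartiles of 0.84 and 1.91. For 63 members every POLR3G ASO library lay above every scrambled ASO library. Of the 64 members that passed the filter on low counts this held for 59, and of all 17098 genes that passed it for 32.5%; nothing is read from this, since reads in these libraries chose the members. Without TMM scaling the median over all genes tested moved by 0.14 on the log2 scale and the members' median was 1.49, and 71 members were again the higher ones.

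A small number of members held most of the reads. The 6 with the most reads took 62.1% of the members' reads in the ASO libraries, and OR4F17 on chromosome 19 alone took 19.4%. OR4F17 had 89.5, 92.4 and 93.6 CPM in POLR3G ASO libraries, against 38.5, 38.3 and 41.0 CPM in scrambled ASO libraries. It belongs to a set of nearly identical receptor copies near chromosome ends, and 87.0% of its 31-base words also occur in transcripts of other genes, so its reads cannot be separated with certainty from those of its copies. OR5AS1 on chromosome 11 had 50.3, 52.9 and 58.5 CPM with the POLR3G ASO, against 13.9, 14.7 and 15.1 CPM with the scrambled ASO. OR14J1, in the receptor cluster beside the major histocompatibility complex on chromosome 6, had 50.4, 51.4 and 53.0 CPM, against 14.1, 16.2 and 14.7 CPM with the scrambled ASO. OR1A1, a chromosome 17 receptor known to respond to citrus-like terpenes, had 43.9, 46.4 and 44.9 CPM, against 10.6, 12.5 and 12.4 CPM with the scrambled ASO. In these 4 genes the libraries of the 2 groups lay far apart and varied little within a group. OR6C75 and OR10H1 had ratios of 3.10 and 3.36, and among the 12 members with the highest mean CPM the ratio ran from 1.42 in OR2B11 to 16.7 in OR5AU1.

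These 12 members were not limited to the ASO libraries: each had reads in all 42 libraries, THP-1 included. OR5AS1 averaged 4.31 CPM over the 24 HEK293T libraries outside the ASO experiment and 8.66 CPM over the 12 THP-1 libraries. Per length, OR4F17 stood first at 179 TPM with the POLR3G ASO, against 69.0 TPM with the scrambled ASO, and OR1A1 followed at 16.4 TPM, against 3.81 TPM with the scrambled ASO. The median member had a longest transcript of 4165 bases, and 37 members had no whole-number count in any library, which is how the deposited estimates show reads divided between transcripts.

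**Figure D2:**
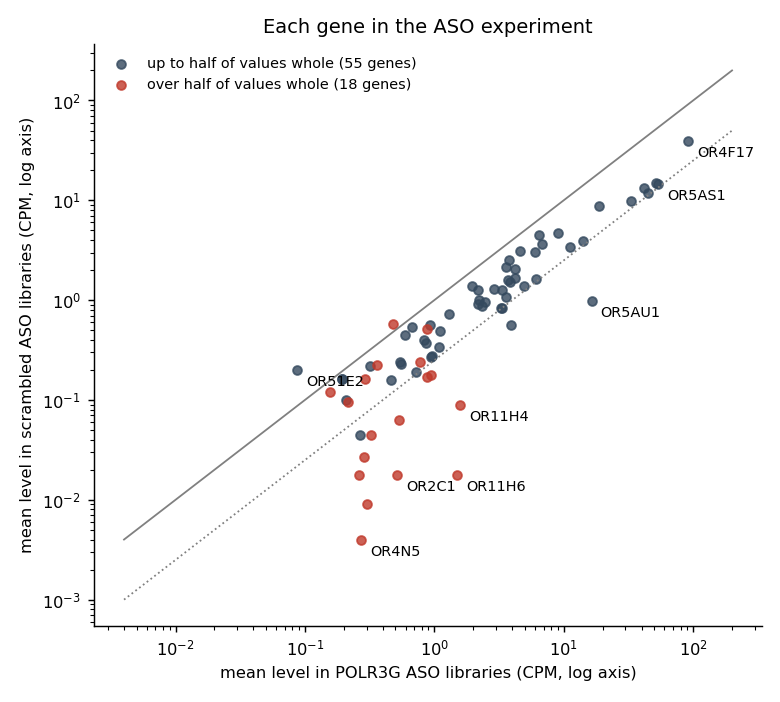
Mean level of each member in POLR3G ASO libraries (horizontal, CPM, log axis) against its mean in scrambled ASO libraries (vertical, CPM, log axis); the solid line marks equal levels and the dotted line a 4-fold difference. Nearly all genes lie below the solid line, OR11H6, OR2K2, OR2C1, OR11H4 and OR5AU1 lie farthest below it, and OR4N5, at 0 with the scrambled ASO, is drawn at 0.004.

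Other members had mostly whole-number counts. In 18 members more values above 0 were whole (within 0.001 reads) than fractional, and in 7 (OR11H4, OR11H6, OR6B3, OR10AD1, OR2K2, OR2B2 and OR4N5) every one was. Of these 7, OR10AD1 had more reads in the other 36 libraries (152) than in the 6 ASO libraries (112), and the other 6 had 0 to 29 reads there. The median log2 ratio was 2.63 over the 18 and 4.14 over the 7, beside 1.23 over the 55 other members. Those 6 genes with few reads elsewhere passed the threshold mainly through their POLR3G ASO reads. The medians over the 7 and the 18 therefore follow in part from the choice of members. Nothing is read from their distance to the 55 others. OR11H6 had 51, 59 and 55 reads in POLR3G ASO libraries, against 0, 1 and 1 reads in scrambled ASO libraries, and 3 reads in the other 36 libraries together. OR11H4 had 55, 48 and 71 reads, against 5, 3 and 2 reads with the scrambled ASO and 5 reads elsewhere. OR2C1 on chromosome 16 had 22, 23 and 12 reads, against 0, 0 and 2 reads with the scrambled ASO. For OR11H6 and OR11H4 nearly all reads of the series came from the POLR3G ASO libraries, whereas OR2C1 had 105 reads in 22 of the 36 other libraries, at 0.223 CPM on average in THP-1 and 0.0141 CPM in HEK293T. At such depth the ratio is loosely bounded. For OR11H6 it was 83.4 with a 95% interval of 22.7 to 694 (exact binomial, counting error only), and for OR2C1 28.8 with an interval of 7.62 to 244. OR4N5 had 10 reads in each POLR3G ASO library and none in the other 39, and was at least 10.1-fold higher than a floor of 3 reads over the scrambled ASO group. OR11H6, OR2C1 and OR4N5 passed the threshold through their POLR3G ASO reads, so their high ratios follow in part from the choice of members. The intervals and the floor do not cover that choice.

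OR11H4 and OR11H6 are neighbours on chromosome 14 and members of one subfamily. To show how far their reads can be told apart from those of relatives, 60 bases of coding sequence are given from the same aligned place in these 2 genes, in the member OR11H2 and in OR11H12, which had too few reads to be a member. Capitals mark bases that differ from OR11H6. All are read 5′ to 3′ from GENCODE transcripts on GRCh38.
OR11H6, chr14:20224010-20224069, plus strand: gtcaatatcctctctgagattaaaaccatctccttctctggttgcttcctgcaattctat
OR11H4, chr14:20243068-20243127, plus strand: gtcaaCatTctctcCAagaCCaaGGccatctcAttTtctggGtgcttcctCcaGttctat
OR11H2, chr14:19713566-19713625, minus strand: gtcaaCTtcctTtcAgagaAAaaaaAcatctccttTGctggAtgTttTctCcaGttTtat
OR11H12, chr14:18601408-18601467, plus strand: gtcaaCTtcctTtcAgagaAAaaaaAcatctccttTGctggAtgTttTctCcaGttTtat
OR11H4 differed from OR11H6 at 13 of the 60 positions, and over the aligned coding sequence the 2 genes were 68.9% identical, with a longest identical run of 14 bases. None of the 31-base words of OR11H4 or OR11H6 occurs in another gene's transcripts, so no 31-base stretch of their reads is ambiguous between annotated genes. OR11H2 and OR11H12 carried the same 60 bases, and 90.0% of the 31-base words of OR11H2 occur in other genes, so the 32.1 estimated reads of OR11H2 with the POLR3G ASO, against 3 with the scrambled ASO, are shared between copies by estimation.

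The 300 bases around the annotated start (250 before to 50 after, RefSeq, GRCh38.p14) were read for the chromosome 14 members with the largest ratios. For OR11H6 this start is the first coding base, so it may not mark where transcription starts. Capitals mark matches, on either strand, to TATAAA (the TATA box), TAATTG (letters bound by homeodomain factors such as LHX2) or GTTCGANNC (the B box of RNA polymerase III promoters).
OR11H4, chr14:20239036-20239335, plus strand: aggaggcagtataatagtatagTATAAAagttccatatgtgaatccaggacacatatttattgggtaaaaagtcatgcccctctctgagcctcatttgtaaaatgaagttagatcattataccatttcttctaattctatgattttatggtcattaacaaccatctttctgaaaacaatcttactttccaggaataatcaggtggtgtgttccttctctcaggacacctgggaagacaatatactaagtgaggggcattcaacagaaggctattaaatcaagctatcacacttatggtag
OR11H6, chr14:20223460-20223759, plus strand: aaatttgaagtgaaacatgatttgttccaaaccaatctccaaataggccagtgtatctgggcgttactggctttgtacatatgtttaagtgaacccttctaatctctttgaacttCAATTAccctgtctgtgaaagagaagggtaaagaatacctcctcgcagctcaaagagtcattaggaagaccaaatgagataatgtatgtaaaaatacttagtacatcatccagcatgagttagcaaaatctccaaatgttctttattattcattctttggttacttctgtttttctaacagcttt
OR5AU1, chr14:21156014-21156313, minus strand: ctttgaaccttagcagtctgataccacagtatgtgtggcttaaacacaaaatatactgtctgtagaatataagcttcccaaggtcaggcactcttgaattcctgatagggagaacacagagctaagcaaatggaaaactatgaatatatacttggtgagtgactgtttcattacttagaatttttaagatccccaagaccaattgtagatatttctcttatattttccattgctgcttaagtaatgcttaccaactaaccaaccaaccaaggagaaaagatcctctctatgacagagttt
OR11H4 held 1 TATAAA and OR11H6 1 TAATTG, and none of the 3 motifs was in the OR5AU1 window. That window lies inside the gene as GENCODE places it (chr14:21148370-21159060), so RefSeq and GENCODE give OR5AU1 different starts. The distance from HNRNPC given below uses the GENCODE start. RefSeq windows were matched for 56 members and 240 other receptor genes. TATAAA was in 26.8% of the members' windows, 35.8% of the other receptors' windows and 12.0% of all 27305 windows, and TAATTG in 16.1%, 25.0% and 7.58%. GTTCGANNC was in 0 of the 56 members' windows and 0.773% of all windows. The members' windows held a median of 1.5 CG dinucleotides, the other receptors' 1 and all windows 14. In GENCODE, 70 of 73 members and 199 of 294 other receptor genes have transcripts that reach beyond the coding sequence. The windows of members and other receptors may therefore be unlike in kind, and their shares were not tested.

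OR5AU1 (chr14:21148370-21159060, minus strand) had the highest ratio of the 45 members with reads in all 42 libraries, 16.7. It had 15.2, 15.4 and 18.7 CPM in POLR3G ASO libraries, against 0.838, 1.11 and 1.00 CPM in scrambled ASO libraries, and 0.420 CPM on average in the 24 other HEK293T libraries. The gene starts 50076 bases beyond the 3′ end of HNRNPC, an abundant gene for an RNA-binding protein that is transcribed in the same direction. HNRNPC itself averaged 987 CPM with the POLR3G ASO and 1022 CPM with the scrambled ASO. The processed pseudogenes on this stretch were higher as well. AL157687.1, 24177 bases beyond HNRNPC, had 19 reads with the POLR3G ASO and 1 with the scrambled ASO. SMARCE1P3, on the strand opposite to HNRNPC, had 66.3 reads with the POLR3G ASO and 0 with the scrambled ASO. CKAP2P1, 95664 bases beyond HNRNPC, had 539 reads with the POLR3G ASO and 6 with the scrambled ASO. AL157687.1 and CKAP2P1 lie on the strand of HNRNPC. The next protein-coding gene, ZNF219, averaged 7.22 CPM with the POLR3G ASO and 8.08 CPM with the scrambled ASO. OR11H4, OR11H7 and OR11H6 lie 12209, 26212 and 31856 bases beyond the 3′ end of TTC5 on the strand opposite to it, and OR11H7, a polymorphic pseudogene and so not a member, had 312 reads with the POLR3G ASO and 28 with the scrambled ASO. TTC5 averaged 44.2 CPM with the POLR3G ASO and 33.5 CPM with the scrambled ASO. The reads came from a stranded kit, but the strand setting of the counting is not given in the sources used here, so sense and antisense reads of these genes cannot be told apart.

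**Figure D3:**
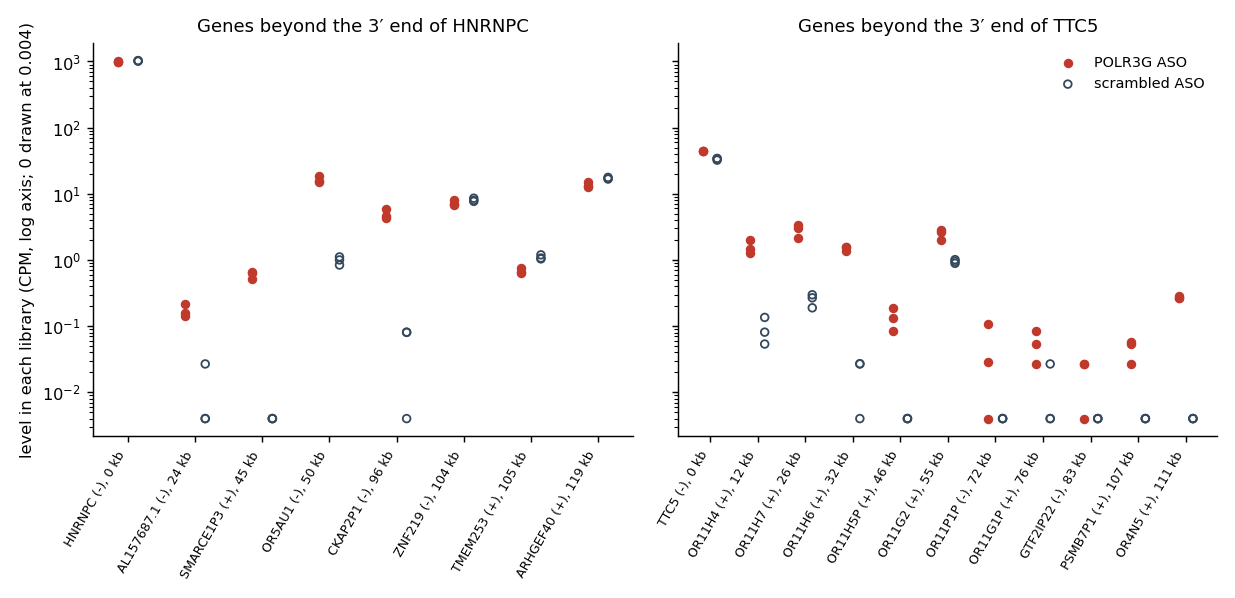
Level in each ASO library (CPM, log axis, 0 drawn at 0.004) of the genes lying up to 120 kb beyond the 3′ ends of HNRNPC (left) and TTC5 (right) on chromosome 14, with strand and distance in kb, POLR3G ASO as filled red points and scrambled ASO as open points. OR5AU1, the OR11H genes and the pseudogenes between them are higher with the POLR3G ASO, while HNRNPC, TTC5 and the coding genes past CKAP2P1 have ratios between 0.618 and 1.32.

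Only OR51E2 and OR2W3 had a lower mean level with the POLR3G ASO. OR51E2, a receptor known from prostate, had 0.120, 0.0810 and 0.0594 CPM, against 0.189, 0.219 and 0.188 CPM with the scrambled ASO, and the groups did not overlap. OR2W3 had 53 reads, against 64 with the scrambled ASO, and its groups overlapped. At the threshold, OR2B2 with 31 reads, OR4K13 with 30.5 and OR4N5 with 30 were the last members, and OR5AN1 with 29 reads, OR1K1 with 26 and OR8S1 with 21 were the first genes left out. OR1K1 had 26 reads with the POLR3G ASO and 0 with the scrambled ASO, while OR4K13 had 17.0 with the POLR3G ASO and 13.5 with the scrambled ASO. The 294 receptor genes below the threshold summed to 6.98 ± 0.549 CPM with the POLR3G ASO and 1.17 ± 0.181 CPM with the scrambled ASO (SD, n = 3 each), a ratio of 5.95, and 129 of them had no read in the 6 ASO libraries.

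Other protein-coding genes were also higher with the POLR3G ASO where they were low in the rest of the series. Genes were divided by their mean CPM over the 36 libraries outside the ASO experiment. Among 609 other protein-coding genes under 0.1 CPM with at least 30 reads in the ASO libraries the median log2 ratio was 2.48. It was 0.68 over 1881 genes at 0.1 to 1 CPM, -0.05 over 3172 genes at 1 to 10 CPM and -0.14 over 10156 genes at 10 CPM and over. The threshold of 30 reads favours high values in the lowest class, so sums over all genes of a class are given too. All 3306 other coding genes under 0.1 CPM summed to 556 ± 26.1 CPM with the POLR3G ASO and 115 ± 11.9 CPM with the scrambled ASO, a ratio of 4.85, and the ratios of the next classes were 1.95, 1.08 and 0.900.

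Members had medians of 2.86 (17 genes), 1.27 (38 genes) and 1.08 (17 genes) in the classes under 0.1, from 0.1 to 1 and from 1 to 10 CPM, and the 1 member above 10 CPM, OR4F17, had 1.23. In the class from 1 to 10 CPM, where 3172 of 3318 other coding genes reached 30 reads and the threshold selected little, 58.8% of members and 12.7% of other coding genes were more than 2-fold higher. Other coding genes in that class had a median of -0.14 where up to 1% of their 31-base words recur in 10 or more other genes, and of 0.24 where more do. The members of the class had 1.04 (4 genes) and 1.22 (13 genes). From 0.1 to 1 CPM the order was the same, with 0.50 and 0.95 over other coding genes and 0.84 (13 genes) and 1.35 (25 genes) over members. Under 0.1 CPM it was the opposite, with 2.53 and 2.34 over other coding genes and 3.65 (12 genes) and 0.36 (5 genes) over members, so the members' median of 2.86 there spans unlike genes. Without TMM scaling the median of other coding genes at 1 to 10 CPM was 0.09, of the opposite sign. These differences between members and other genes were not tested, since reads in the same libraries chose the members.

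**Figure D4:**
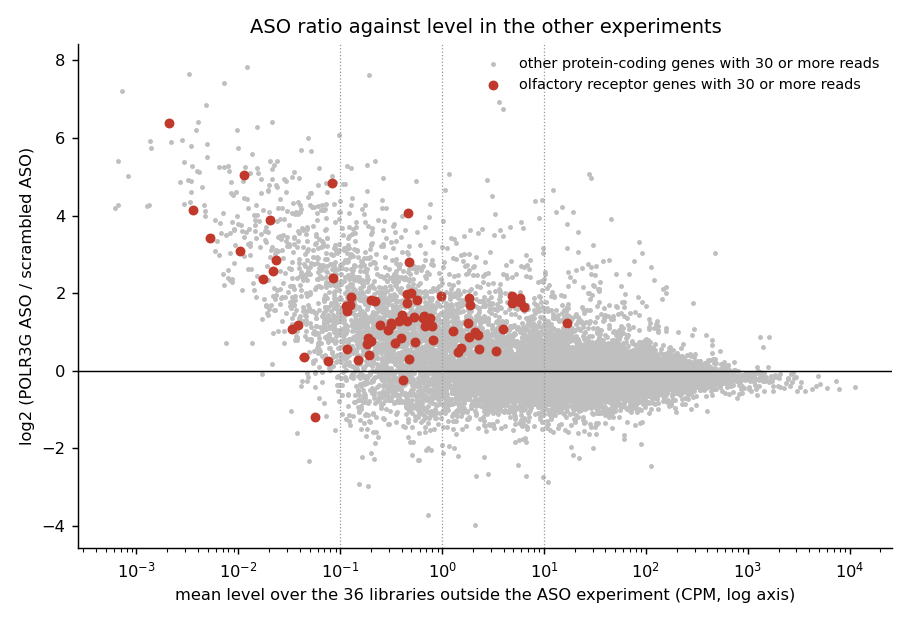
Log2 ratio of mean levels, POLR3G ASO over scrambled ASO (vertical), against the mean level over the 36 libraries outside the ASO experiment (horizontal, CPM, log axis), for other protein-coding genes with at least 30 reads (grey) and the members with reads in both (red); dotted lines mark 0.1, 1 and 10 CPM. Grey points spread upward towards low levels and centre near 0 above 1 CPM, and the red points between 1 and 10 CPM lie above 0, with a median of 1.08.

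Ratios of summed levels in other gene families, POLR3G ASO over scrambled ASO, differed widely and were not tested against the members. Olfactory receptor pseudogenes summed to 55.3 ± 1.07 CPM with the POLR3G ASO and 25.0 ± 0.624 CPM with the scrambled ASO, a ratio of 2.21. Taste receptors summed to 19.2 CPM with the POLR3G ASO and 10.8 CPM with the scrambled ASO, a ratio of 1.78. The ratio was 3.82 for keratin-associated proteins and 10.7 for interferon alpha genes, whose sums in the scrambled ASO group were 0.961 and 0.0449 CPM. Clustered protocadherins, neuronal adhesion genes that are also chosen one by one, had 1.23, zinc-finger genes 1.15 and keratins 1.06. Vomeronasal receptors had 1.67, and the skin barrier genes of the LCE and SPRR families 7.36 on 0.0540 CPM in the scrambled ASO group. Trace amine receptors summed to 0.498 CPM with the POLR3G ASO and 0 CPM with the scrambled ASO. The PRAMEF and MRGPR families had 4.22 and 2.50, on 0.0715 and 0.562 CPM in the scrambled ASO group. Defensins had 1.42, with 0.912 ± 0.233 CPM with the POLR3G ASO and 0.642 ± 0.208 CPM with the scrambled ASO (SD, n = 3 each). Ribosomal protein genes, among the most abundant, had 0.894. Medians over single genes could differ from these ratios of sums. Over the 37 protocadherins with at least 30 reads in the ASO libraries the median log2 ratio was 1.09, beside 1.35 over the members. It was 0.25 over 477 zinc-finger genes and 0.60 over 8 keratins with at least 30 reads.

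Members lay on 13 of the 18 chromosomes with protein-coding receptor genes. Chromosome 11, which has the largest clusters, held 19 members among 160 receptor genes, a median log2 ratio of 1.18 and the top gene OR5AS1. Chromosome 1 held 12 members of 58 genes with a median of 1.22, and its top gene was OR2M3, a receptor known to detect an onion thiol. Chromosome 14 held 11 of 24 with a median of 1.91, chromosome 19 held 9 of 20 with 1.22, and chromosome 17 held 5 of 12 with 1.22. On chromosomes 6, 12 and 5 there were 4, 3 and 3 members with medians of 1.73, 1.63 and 2.37. Over the 8 chromosomes with at least 3 members the medians thus ran from 1.18 to 2.37. Other coding genes under 1 CPM had medians of 0.26 to 1.70 over 23 chromosomes, and on chromosome 14, where the members' median was the second highest, theirs was 0.48.

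Distance from active genes was set beside the ratio, with genes of at least 10 CPM in the 24 other HEK293T libraries as active. Other coding genes under 0.1 CPM that start within 20000 bases beyond the 3′ end of an active gene on their strand had a ratio of sums of 7.15 (278 genes). The ratio was 6.43 from there to 50000 bases, 4.97 up to 100000, 4.14 up to 500000 and 3.73 beyond (1160 genes). In this class genes that overlap an active gene on their strand had the lowest ratio, 3.43 (124 genes). From 0.1 to 1 CPM, the class of 38 members, the ratios in the same order were 2.74, 1.91, 1.88, 1.73 and 1.63. Overlapping genes there had 1.94, above all but the nearest. For active genes on the other strand whose 3′ end points at the gene, the ratios under 0.1 CPM ran from 4.29 to 5.62. They had no order by distance, and genes overlapping one had 3.85. From 0.1 to 1 CPM they ran from 1.735 to 2.23, and overlapping genes had 1.81. Only 5 members lay within 50000 bases of such a 3′ end on their own strand and 9 on the other strand, 13 in all. Their median log2 ratio was 1.69, beside 1.31 over the remaining 60 members. The 5 on their own strand include OR7D2, 15555 bases beyond ZNF317, with a ratio of 6.99, OR2K2, 30509 bases beyond ECPAS, with 33.4 (95% interval 5.58 to 1360, on 1 scrambled ASO read), and OR2C1, 37037 bases beyond ZNF75A, with 28.8 (7.62 to 244). They also include OR2W3 and OR2T8, 17382 and 42047 bases beyond TRIM58, with ratios of 0.838 and 1.21. For 56 members the nearest such 3′ end on their own strand lay over 100000 bases away. Some others, such as OR4F17 and OR11H4, had no value for this distance. Same-strand active genes beyond a member's own 3′ end were not measured, so distance from active genes in general was not tested. Of 3306 other coding genes under 0.1 CPM, 1148 lay 100000 to 500000 bases away on this measure and 1160 farther, so long distances were common there too. Among the members a short distance went with high ratios in some and not in others.

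Compared with the 294 receptor genes below the threshold, the members have longer annotated transcripts and more repeated sequence. The median longest transcript was 4165 bases in members and 1080 bases in the other receptor genes, and 58 of 73 members and 86 of 294 others passed 2000 bases. At least some 31-base words that recur in 10 or more other genes were present in 56 members and 41 others. Across the 73 members transcript length and the mean CPM over the 36 libraries outside the ASO experiment had a Spearman rho of 0.38, and the share of such recurring words and that CPM one of 0.50. The members' order by level was close in the 2 cell lines, with a rho of 0.91 between the mean CPM in 12 THP-1 and in 24 HEK293T libraries. The genes share libraries, and longer transcripts collect more reads, so these values only describe the set. The log2 ASO ratio had a rho of -0.22 with the level elsewhere over the 72 members with reads in both groups.

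Of the genes known for olfactory signalling and receptor choice, 21 of 28 could be tested with the POLR3G ASO against the scrambled ASO, and 2 rose and 14 fell (edgeR quasi-likelihood test, Benjamini-Hochberg adjusted p under 0.05), while 34.4% of all genes tested rose and 34.1% fell. Their median log2 fold change was -0.27, beside a median near 0 (-0.003) over all genes tested. GRK3, a receptor kinase of olfactory neurons, averaged 52.1 ± 2.83 CPM with the POLR3G ASO and 70.6 ± 0.171 CPM with the scrambled ASO (log2 fold change -0.39, adjusted p 1.8e-05). REEP1, which helps receptors reach the cell surface, averaged 12.0 ± 0.563 CPM with the POLR3G ASO and 18.1 ± 0.674 CPM with the scrambled ASO (log2 fold change -0.54, adjusted p 3.61e-05). GNAS, the G protein that immature olfactory neurons use, averaged 468 ± 4.31 CPM with the POLR3G ASO and 552 ± 10.0 CPM with the scrambled ASO (log2 fold change -0.19, adjusted p 3.88e-05). Of the 10 olfactory sensory neuron markers 6 were tested, 2 of them rose and 4 fell. GNAL fell by 0.28 on the log2 scale (adjusted p 0.000199) and ADCY3 by 0.46 (adjusted p 0.000527), while STOML3 averaged 0.532 CPM with the POLR3G ASO and 0.0450 CPM with the scrambled ASO (log2 fold change 3.53, adjusted p 0.000258). The receptor transporter RTP1 and the channel subunit CNGA2 had 0 reads with the scrambled ASO. With the POLR3G ASO they averaged only 0.0271 and 0.00944 CPM. These 2 genes and OMP, which marks mature neurons, were too low to test. Of the 10 THP-1 markers 5 were tested and all 5 rose, among them CD68 at 21.9 ± 0.355 CPM with the POLR3G ASO and 3.41 ± 0.257 CPM with the scrambled ASO (log2 fold change 2.73, adjusted p 2.73e-08) and ITGAM at 4.49 ± 0.0872 CPM with the POLR3G ASO and 0.296 ± 0.0458 CPM with the scrambled ASO (log2 fold change 3.96, adjusted p 1.14e-07). LYZ, the most abundant of them in THP-1 at 3906 CPM, averaged 5.32 ± 0.468 CPM with the POLR3G ASO and 2.92 ± 0.401 CPM with the scrambled ASO (log2 fold change 0.92, adjusted p 0.000183). Among the markers too low to test, TYROBP and PTPRC had 0 reads in the ASO libraries. LAPTM5, at 1159 CPM in THP-1, averaged 0.0719 CPM with the POLR3G ASO and 0.108 CPM with the scrambled ASO, with overlapping libraries. MPO (0.323 against 0.0165 CPM) and CD33 (0.262 against 0.152 CPM) had higher means with the POLR3G ASO. Of the 8 HEK293T markers 1 rose and 5 fell, with CDH2 at 125 ± 4.27 CPM with the POLR3G ASO and 167 ± 3.75 CPM with the scrambled ASO (log2 fold change -0.37, adjusted p 5.41e-06).

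The other 8 comparisons did not use the values that chose the members, and in them few members moved. Between 43 and 47 of the 73 members passed the filter on low counts in each. With POLR3G siRNA, which lowers the same gene as the ASO, 3 members rose and 1 fell of 43 tested, against 36.8% of all genes that rose and 38.1% that fell, by edgeR at an adjusted p under 0.05, and the count of 4 was 2 without control siRNA library 3. With siE4, 2 rose and 5 fell of 45 (all genes 26.2% and 28.7%), and the count of 7 was 4 without control siRNA 25 nM library 2. With siE6, 6 rose and 5 fell of 45 (31.2% and 31.8%), and the count of 11 was 5 without control library 2 and 3, 7 and 6 without siE6 library 1, 2 or 3. With siE8, 1 rose and 8 fell of 45 (29.1% and 28.6%), and the count of 9 was 5 without control library 1, 2 without siE8 library 2 and 5 without siE8 library 3. CHX raised 3 and lowered 0 of 45 against DMSO (33.5% and 32.5%), and the count of 3 was 6 without CHX library 2 and 5 without DMSO library 3. The siE4, siE6 and siE8 comparisons share their control libraries, and those with ML-60218 and CHX share DMSO or CHX libraries, so their counts are not independent.

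MAF1 against eGFP gave 0 called members of 47, with 5 at an unadjusted p under 0.05, where 0.0386% of all genes were called. ML-60218 against DMSO gave 0 of 45, with 1 at an unadjusted p under 0.05, against 15.5% of all genes. ML-60218 with CHX against CHX alone gave 0 of 45, with 2 at an unadjusted p under 0.05, against 16.5% of all genes. DESeq2 also called 0 members in these 3 comparisons, and the edgeR test of whether CHX changes the ML-60218 effect called 0 of 45 (1 at an unadjusted p under 0.05), against 6.56% of all genes. Most members are low genes with wide errors, so a smaller share of calls does not show that they are steadier than other genes. Median log2 fold changes of the members tested ran from -0.25 with siE8 to 0.20 with siE6, while it was 1.42 over the 64 members fitted with the POLR3G ASO.

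**Figure D5:**
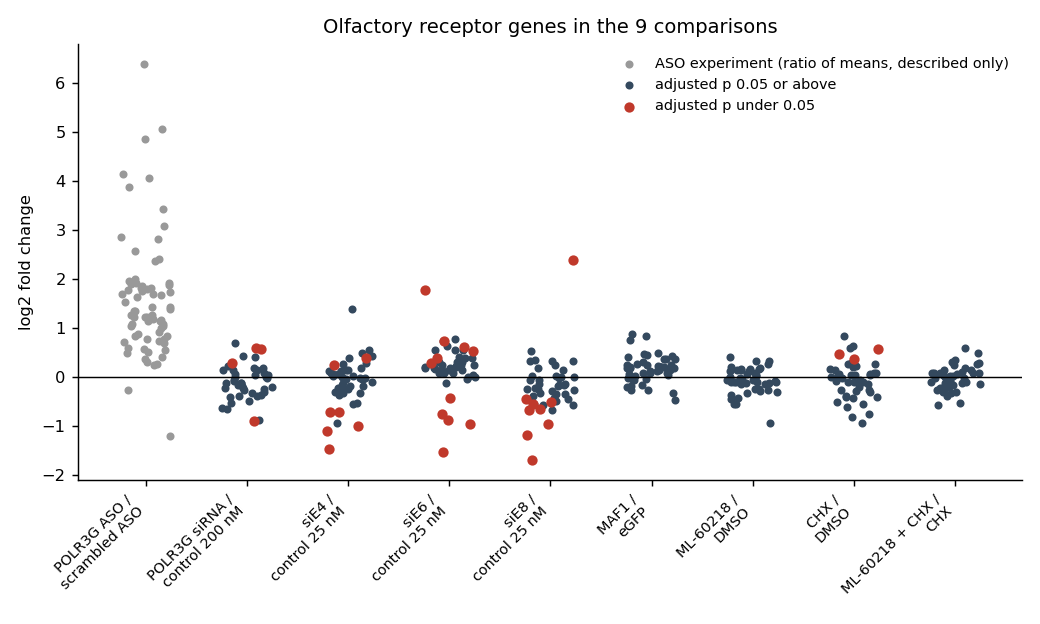
Log2 fold change of each member in the 9 comparisons; grey points are ratios of means in the ASO experiment, which were not tested, and the other points are edgeR values, red where the adjusted p is under 0.05. Outside the ASO column the points lie around 0, between -1.69 and 2.39, while most grey points lie between 0 and 2.

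OR4F17, the member with the most reads, changed in 4 of the 8 comparisons and not in 1 direction. It had 12.95, 14.1 and 13.7 CPM with POLR3G siRNA, against 25.4, 25.0 and 25.8 CPM with control siRNA at 200 nM (log2 fold change -0.90, SE 0.04, adjusted p 1.07e-07 by edgeR). With siE8 it had 8.89, 7.48 and 7.75 CPM, against 16.2, 14.1 and 16.01 CPM with control siRNA at 25 nM (log2 fold change -0.95, SE 0.08, adjusted p 5.14e-07). With siE6 it rose by 0.38 (adjusted p 0.00084) and with siE4 by 0.25 (adjusted p 0.0157). The libraries did not overlap in any of these. Without OR4F17 the members' sum was 60.7 ± 0.766 CPM with POLR3G siRNA and 60.4 ± 3.62 CPM with its control, and with OR4F17 it was 74.3 ± 0.971 CPM with POLR3G siRNA and 85.8 ± 3.40 CPM with control siRNA (SD, n = 3 each). The gene that was 2.34 times higher with the POLR3G ASO was thus lower with the POLR3G siRNA, each against its own control. Whether the copies that share its sequence contributed equally was not tested.

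OR1F1, a short single-transcript receptor gene on chromosome 16 with 942 bases, had 0.585, 0.890 and 0.929 CPM with siE4, against 3.0, 2.50 and 1.24 CPM with control siRNA at 25 nM (log2 fold change -1.47, SE 0.29, adjusted p 0.000706 by edgeR). OR2B6 had 0.525, 0.518 and 0.720 CPM with siE8, against 0, 0.129 and 0.200 CPM with the control (log2 fold change 2.39, SE 0.60, adjusted p 0.00383), and it had 0.388, 0.306 and 0.464 CPM with siE6 (log2 fold change 1.78, adjusted p 0.0226). The siE8 value of OR2B6 was 1.81 without control library 1 and 3.15 without control library 3. The siRNA libraries lay above all control libraries in OR2B6 and below them in OR1F1. OR4K17 and OR2B11 fell with siE4 by 0.72 each on the log2 scale (adjusted p 0.00108 and 0.00392), and OR6C75 rose by 0.39 (adjusted p 0.0127). OR2V1 fell with siE8 by 1.69 (adjusted p 0.0123, 0.0519 and 0.0557 without siE8 library 2 or 3, and by 2.73 without siE8 library 1) and OR2AG2 with siE6 by 1.52 (adjusted p 0.0145, 0.0583 without siE6 library 1). OR7C1 had 3.89, 4.09 and 4.01 CPM with CHX, against 2.78, 2.64 and 2.60 CPM with DMSO (log2 fold change 0.58, SE 0.13, adjusted p 0.00184). OR1D2, known from sperm, rose by 0.36 with CHX (adjusted p 0.0162 by edgeR, 0.0522 without CHX library 1 and 0.0734 without DMSO library 1). With DESeq2 its adjusted p was 0.0621.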

How the data were processed

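The submitters' processing notes list bcl2fastq 2.20, Trim Galore, Salmon and DESeq2 as tools and hg38 as the build. Their order, other versions, the annotation and the strand setting of the counting are not stated in these notes. For each of 194142 transcripts and 42 libraries the authors deposited an estimated count and a TPM value, per the file headers. GENCODE 29 (GRCh38) named 158359 transcripts (81.6%); the others, with 8.06% to 9.54% of a library's reads, entered neither library sizes nor tests.

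Estimated counts were summed over 34318 genes and rounded for tests. Levels are CPM with TMM factors over all libraries. Each experiment was fitted over all its genes with edgeR 4.0.16 (R 4.3.3; filterByExpr, TMM, quasi-likelihood F-test, Benjamini-Hochberg adjustment); DESeq2 1.42.0 was an alternative. The fits were tested on simulated data. Because Salmon assigns ambiguous reads by estimation, 31-base words shared with other genes, on either strand, were counted for each gene. The floor and intervals cover counting error only, not the choice of members. Python 3.11.15 with pandas 2.3.3, scipy 1.17.1 and matplotlib 3.10.9 made tables and figures.

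The members, gene lists, level classes and tests were chosen with earlier results of these data known. Genes named are the 12 members with the highest mean CPM over the ASO libraries, the highest on each chromosome with at least 3, up to 10 called elsewhere by smallest adjusted p, the 5 highest in any other group, and those at the threshold. List genes were named where called, up to 3 per list. The members with whole-number counts, OR51E2, OR2W3, the genes near HNRNPC, TTC5 and TRIM58, LYZ, GNAL and ADCY3 were chosen after their values were seen. So were OR7D2 and TYROBP, PTPRC, LAPTM5, MPO, CD33, RTP1, CNGA2 and OMP, list genes too low to test. Alternatives were another tool, scaling, filter, threshold, length offset and replicate block, and leaving out each library.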

Additional observations from a re-analysis of the deposited data

How the results depend on the processing

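The ratio of the members' summed levels, 2.86, was 3.15 without TMM scaling, 3.01 without OR4F17 and, in an alternative chosen after seeing the data, 4.11 over the members with more whole than fractional values; leaving out one library gave 2.81 to 2.91, and the deposited TPM 2.88. Membership was 104 genes at 10 reads and 53 at 100 reads. The median log2 ratio of other coding genes under 0.1 CPM, 2.48, was 2.13 at 10 reads, 3.47 at 100 reads and 2.62 without TMM; at 0.1 to 1 CPM, 0.68, it was 0.82 at 100 reads and 0.83 without TMM; at 1 to 10 CPM, -0.05, it was -0.0681 at 100 reads and 0.0900 without TMM; at 10 CPM and over, -0.14, it was 0.00153 without TMM. Counts of called members were for POLR3G siRNA 4, with DESeq2 2 and at an adjusted p under 0.01 1; for siE4 7, at 0.01 3; for siE6 11, with DESeq2 5, with no filter 6, with a length offset 7, at 0.01 1; for siE8 9, with DESeq2 5, at 0.01 2; for CHX 3, with DESeq2 1, at 0.01 1. Leaving out one library gave 2 to 5, 4 to 8, 3 to 9, 2 to 9 and 3 to 6 in the same order, and 0 in the comparisons with 0. The cause of these moves was not tested. Replicate numbers were not shown to pair samples: no comparison had all 3 pairs correlated above 0.1, and CHX against DMSO alone had every library closest to its own number. With a replicate block the POLR3G siRNA count was 2, siE6 gave 9, and the other counts stayed within 1.5 times. No named gene turned its direction. Depth limits the members under 0.1 CPM, which hold 30 to 184 reads in the ASO libraries.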
